A study of Mus musculus with 8 samples.

Results

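The replication-dependent histone genes were followed in crypts, the epithelial glands of the gut, on day 5. They were the 70 genes of the deposited tables whose symbol starts with Hist1h, Hist2h, Hist3h or Hist4h and does not end in -ps, out of 34745 genes in all. One pseudogene with the ending -ps, Hist3h2bb-ps, was left out, and it had 8 counts over the 8 libraries. The 70 rows carry 69 symbols, and 65 of them are annotated as protein coding in GENCODE M21. By the same annotation Hist1h2aj and Hist1h2al are pseudogenes, and a second row named Hist2h2bb is a noncoding RNA. These were kept by the rule on symbols. The 4 DSS_CA libraries came from wild-type (WT) C57BL/6 mice exposed to dextran sulfate sodium (DSS), which injures the gut lining and causes colitis, together with cholic acid (CA), a primary bile acid. The 4 DSS libraries came from mice of the same strain and genotype given DSS alone, so all 8 libraries share the DSS exposure. The libraries were made from 200 ng of total RNA with a TruSeq Stranded Total RNA kit, and the study compared colitic crypts with and without cholic acid. The labels give no gut segment, age, sex, dose or route, and no statement that replicates are separate animals, so a p-value here covers only how far these libraries vary, and that variation may be technical.

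Replication-dependent histone genes code for the core histones H2A, H2B, H3 and H4, around which DNA is wound, and for the linker histone H1, which binds DNA between nucleosomes. They lie in clusters, have as a rule no introns, and are transcribed mainly in S phase, when new DNA has to be packed. Their mRNAs are unusual in ending at a conserved stem-loop, bound by the stem-loop binding protein Slbp, in place of a poly(A) tail. Some of them, among them Hist1h1c, Hist1h2bc and Hist2h2be, are also known to be made as polyadenylated transcripts that run on past the usual end. Crypts hold the dividing cells of the gut epithelium, and libraries of total RNA are in principle able to keep transcripts without a tail.

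The stem-loops of some of the histone genes are shown first, since they mark where a transcript without a tail ends. They were read from GENCODE M21 transcripts on GRCm38 (mm10), 5′ to 3′ on the transcript strand. Capitals mark a stem-loop of 16 bases, a stem of 6 base pairs around a loop of 4 bases.
Hist1h1c, chr13:23739507-23739532, plus strand: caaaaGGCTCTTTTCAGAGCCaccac
Hist3h2a, chr11:58955167-58955192, plus strand: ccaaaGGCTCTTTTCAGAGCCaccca
Hist1h2bf, chr13:23573760-23573785, minus strand: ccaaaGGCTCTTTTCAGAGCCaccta
Hist1h3f, chr13:23544927-23544952, plus strand: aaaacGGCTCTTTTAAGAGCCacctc
Hist1h4i, chr13:22040961-22040986, minus strand: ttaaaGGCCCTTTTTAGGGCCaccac
Hist1h4c, chr13:23698084-23698109, minus strand: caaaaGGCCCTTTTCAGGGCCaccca
Hist1h4j, chr13:21735432-21735457, plus strand: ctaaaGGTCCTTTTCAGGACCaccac

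The search looked for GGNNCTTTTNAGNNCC with a fully paired stem on the transcript strand only. It found the element in 44 of the 70 histone genes and in 49 of 21901 protein-coding genes of the annotation, a share of 0.224%. The 5 holders outside the 70 genes were H2afx, H2bfm, Nova2, Syncrip and Trim17. H2afx codes for a histone variant known for its part in the response to DNA breaks. Of the 26 histone genes without a match, 13 have no annotated base after the stop codon, so the window that would hold the element was missing for them. The 44 elements took 6 forms. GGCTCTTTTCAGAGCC stood in 26 genes, of which 3 code for H1, 10 for H2A, 8 for H2B and 5 for H3. The 11 H4 genes with an element carried 3 other forms, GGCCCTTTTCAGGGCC in 7, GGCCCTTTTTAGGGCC in 2 and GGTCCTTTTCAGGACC in 2, none of which occurred in a gene of another type. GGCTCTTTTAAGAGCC stood in 6 genes of types H1, H2B and H3, and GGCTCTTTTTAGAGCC in Hist2h2ac alone.

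Past the stem-loop, some annotated genes run on to a second end with a polyadenylation signal. In all, 15 of the 70 histone genes held AATAAA in their last 50 annotated bases, not all of them with a stem-loop match in the same transcript. The ends of 2 genes known as polyadenylated are printed, with the signal in capitals.
Hist1h1c, chr13:23740338-23740367, plus strand: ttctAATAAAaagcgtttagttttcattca
Hist2h2be, chr3:96223709-96223738, plus strand: ttattattAATAAAgttaccgattagtttc
The first of these ends 840 bases past the stem-loop printed above. The annotated transcript of Hist2h2be had no stem-loop match, so its end was not placed relative to a stem-loop. The annotated transcript of Hist1h2bc has 742 bases after its stop codon, with no stem-loop match and no AATAAA in its last 50 bases.

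Histone transcripts took a small part of every library. They made up 0.0110, 0.0126, 0.00944 and 0.0130% of the counts in DSS_CA 1 to 4, against 0.0180, 0.0151, 0.0198 and 0.0174% in DSS 1 to 4, out of 13334012 to 17973196 counts per library. The share was lower in each DSS_CA library than in each DSS library. In all, 18064 counts fell on the 70 genes, and 2 genes held 68.8% of them, the linker histone gene Hist1h1c and the H2B gene Hist1h2bc. The other 68 genes shared 5642 counts.

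Levels between genes were compared in the deposited FPKM, which divides by gene length. Hist1h2bc stood first with a mean of 83.5 FPKM over 8 libraries, and Hist1h1c second with 24.6 FPKM. The H4 gene Hist1h4i followed at 9.64 FPKM, the H2B gene Hist1h2bf at 6.06, the H2A genes Hist2h2aa2 at 5.67 and Hist2h2aa1 at 4.21, Hist1h2bh of type H2B at 4.15, and Hist3h2a of type H2A at 3.40. Of the 70 genes, 16 reached a mean of 1 FPKM, 57 had fewer than 100 counts in all libraries together, and the median gene had 28 counts and 0.318 FPKM. No count was found for Hist1h2aa, Hist1h2ba, Hist2h2ac, Hist2h3b and the annotated pseudogene Hist1h2aj. A count of 0 allows up to 3 counts in these libraries together, for counting error only.

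**Figure D1:**
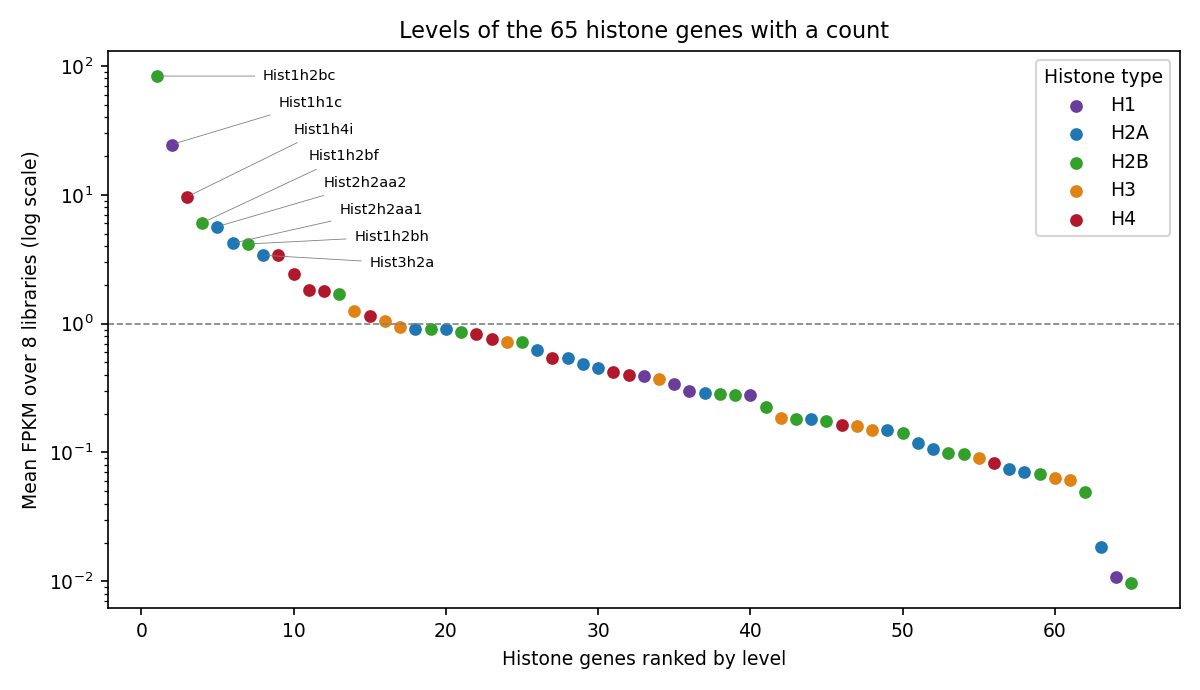
Mean deposited FPKM over 8 libraries (log scale) of the 65 histone genes with a count, ranked by level and coloured by histone type; the 5 genes with no count are not drawn and the dashed line marks 1 FPKM. Hist1h2bc at 83.5 and Hist1h1c at 24.6 FPKM stand above the rest, and most genes of every type lie below the line.

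By type, the 19 H2B genes had 9328 counts, of which Hist1h2bc had 7664, and the 6 H1 genes had 4877, of which Hist1h1c had 4758. The 20 H2A genes had 1842 counts, the 13 H4 genes 1618 and the 12 H3 genes 399. By cluster, 56 genes on chromosome 13 (Hist1) held 15626 counts, 11 on chromosome 3 (Hist2) 1448, 2 on chromosome 11 (Hist3) 962, and the single Hist4 gene, Hist4h4 on chromosome 6, 28. The H4 gene Hist4h4 thus averaged 0.0824 FPKM.

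Levels were set beside those of other histone genes and of genes of dividing cells in the same libraries. The 70 histone genes summed to 172 FPKM, and to 64.0 FPKM without Hist1h1c and Hist1h2bc. The 11 replication-independent variants, histones that are made outside S phase too and whose mRNAs are as a rule polyadenylated, summed to 341 FPKM. H1f0, a linker histone of slowly dividing and differentiated cells, led them at 135 FPKM, and H3f3b, which codes for the replacement histone H3.3, had 61.0 FPKM. The 25 S phase genes summed to 168 FPKM, with a median gene at 4.28 FPKM, and Pcna, the sliding clamp of DNA replication, had 35.9 FPKM. The sums of the histone and S phase genes were thus close, while the median histone gene, at 0.318 FPKM, was far below the median S phase gene.

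Other RNAs known to lack a poly(A) tail gave mixed values. Of 10 RNAs listed, 8 were found by symbol. Rmrp, Terc, Rny1, Rny3 and Vaultrc5, small RNAs of RNA processing, telomeres, Ro particles and vaults, had 35 counts together over the 8 libraries. Rpph1, the RNA of ribonuclease P, had 332 counts. The long nuclear RNA Malat1, which ends in a triple helix, had 18014 counts. Neat1 had 27834 counts, but only its long form ends that way and its short form is polyadenylated. Most of the short RNAs without a tail that were looked up thus had few counts, as had most histone genes, although the libraries are labelled as total RNA; what sets these low counts was not tested.

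Near-identical copies limit the reading of single histone genes. How reads that fit several genes were counted, and with which strand setting, is not given in the sources used here. In the annotated transcripts, the median histone gene had 57.8% of its 75-base windows found in no other gene. Hist2h2aa2 had 0% and Hist2h2aa1 11.1%, whereas Hist1h2bc had 72.9%, Hist1h1c 93.3% and Hist2h2be 100%. Of the 11 genes with more than 90% unique windows, 8 were below 1 FPKM, with a median of 0.298 FPKM over the 11, against 0.372 FPKM over the other 59. Some annotated transcripts are longer than the counted gene, such as Hist1h1d with 7425 annotated and 744 counted bases. For such genes the share of unique windows also covers sequence that was not counted. The part of shared reads in these levels was not tested.

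Whether the counted gene ran on past the stem-loop did not separate high from low genes. In 13 genes the deposited gene extended more than 100 bases past it, and the mean levels ranged from 0.0633 to 24.6 FPKM with a median of 0.281 FPKM. In 31 genes it ended within 100 bases after the stem-loop, or in 2 of these did not extend past it, and levels ranged from 0 to 6.06 FPKM with a median of 0.542 FPKM. Hist1h1c, Hist1h4i and Hist3h2a were the highest of the 13, while Hist4h4 and Hist2h4, with the longest H4 stretches past the element, lay at 0.0824 and 0.163 FPKM.

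**Figure D2:**
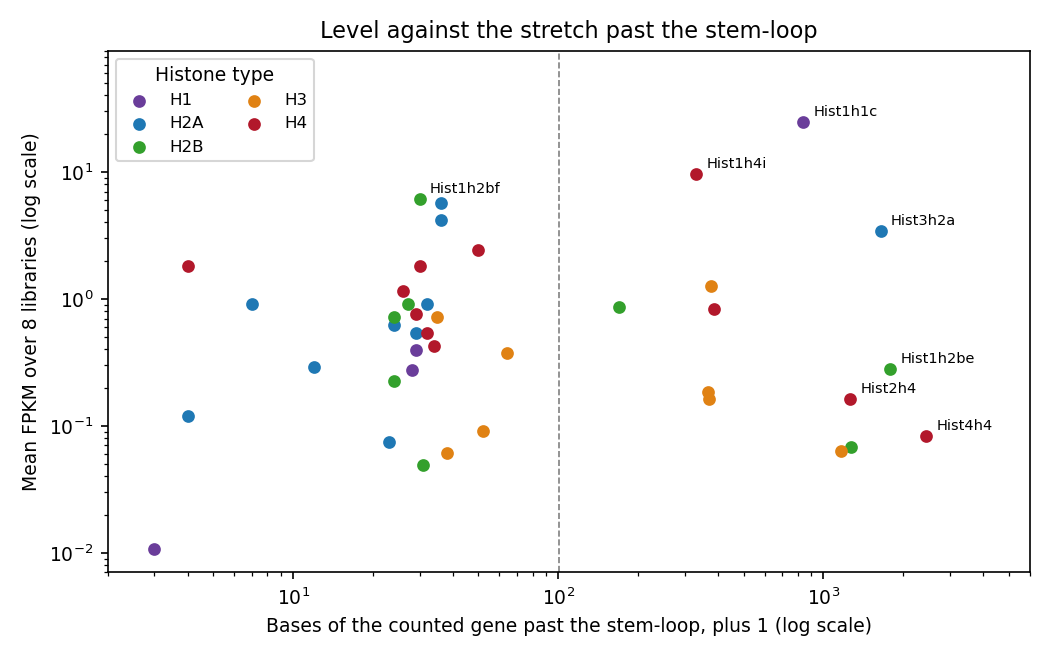
Mean deposited FPKM (log scale) against the bases of the deposited gene that lie past the stem-loop, plus 1 (log scale), for the 41 histone genes that have a count and a stretch past the element; colours give the histone type and the dashed line marks 100 bases. Both sides of the line hold genes above and below 1 FPKM.

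The comparison of DSS_CA with DSS was made on counts. Genes with at least 1 FPKM in at least 4 of 8 libraries were tested, which kept 18 of the 70 histone genes and 9913 of all genes: 1 of 6 H1 genes, 4 of 20 H2A, 5 of 19 H2B, 3 of 12 H3 and 5 of 13 H4. None of the 18 histone genes passed an adjusted p of 0.05 by edgeR's quasi-likelihood test with Benjamini-Hochberg adjustment, beside 13 of all 9913 genes (0.131%, of which 0.0404% higher and 0.0908% lower). At an unadjusted p below 0.05, 3 of the 18 were lower and 0 higher in DSS_CA, beside 4.85% lower and 2.97% higher of all genes tested, or 7.82% in either direction. DESeq2's test called 1 histone gene, Hist1h2bc, lower, among 220 genes in all, and limma-voom called 0. The 18 log2 fold changes had a median of -0.53, against 0.02 over all genes tested, and 15 of them were below 0, beside 48.1% of all genes. Since the 52 others did not pass the filter on levels, these counts describe 18 genes and not the family.

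**Figure D3:**
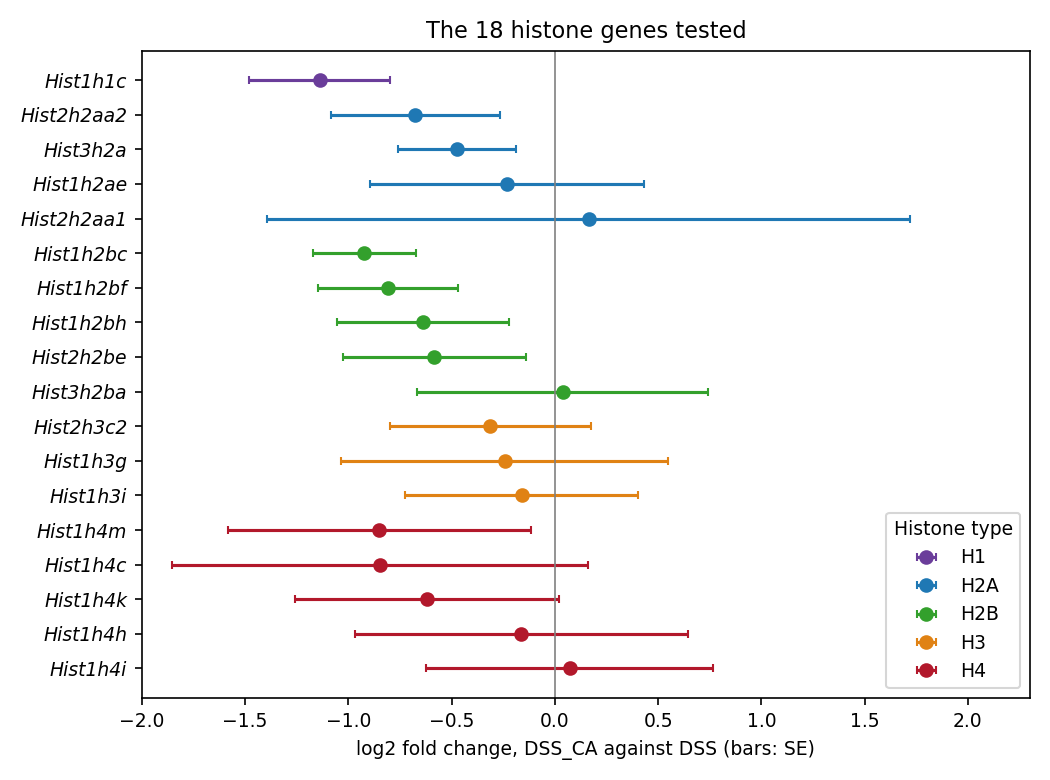
Log2 fold change of DSS_CA against DSS with its SE for the 18 histone genes tested, grouped and coloured by histone type (4 libraries per group). Points below 0 are lower in DSS_CA; 15 of the 18 lie below 0 and none passed the adjusted threshold.

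Hist1h1c was the H1 gene tested. It codes for the linker histone H1.2, and its level was 15.3, 23.1, 29.7 and 29.96 CPM in DSS_CA 1 to 4, against 44.7, 38.2, 84.4 and 48.8 CPM in DSS 1 to 4 (CPM, counts relative to the library total, scaled between libraries by TMM). Every DSS_CA library was below every DSS library, and DSS 3 stood above the other DSS libraries. The means were 24.5 ± 6.92 CPM in DSS_CA and 54.0 ± 20.7 CPM in DSS (SD, n = 4 each). The log2 fold change was -1.14 (SE 0.342), which did not pass edgeR's quasi-likelihood test (Benjamini-Hochberg adjusted p = 0.273, and between 0.0571 and 0.731 over the alternatives). In the deposited FPKM the groups overlapped, at 12.8, 17.3, 14.1 and 22.3 in DSS_CA and 35.2, 18.05, 45.1 and 31.6 in DSS.

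The other 5 H1 genes had 31 counts in DSS_CA and 88 in DSS. Summed, they had 0.0522, 0.751, 0.607 and 0.647 CPM in DSS_CA 1 to 4, against 0.965, 1.51, 2.86 and 0.780 CPM in DSS 1 to 4. The groups did not overlap on this scale, though by a narrow margin between DSS_CA 2 and DSS 4, and no test was run on so few counts. In the deposited FPKM these sums overlapped, at 1.21 in DSS_CA 2 and 1.11 in DSS 4. Hist1h1d, the gene of H1.3, had 11 counts in DSS_CA and 25 in DSS, Hist1h1b, the gene of H1.5, 5 and 27, and Hist1h1a, the gene of H1.1, 11 and 13. Of the 27 counts of Hist1h1b in DSS, 20 came from DSS 3.

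Hist1h2bc, an H2B gene, had the largest share of histone counts. It stood at 41.1, 41.2, 40.4 and 48.6 CPM in DSS_CA 1 to 4, against 69.4, 95.9, 80.5 and 79.3 CPM in DSS 1 to 4. The groups were well apart, with the DSS_CA libraries close together. The means were 42.8 ± 3.86 CPM in DSS_CA and 81.3 ± 10.9 CPM in DSS (SD, n = 4 each), a log2 fold change of -0.92 (SE 0.250) that did not pass edgeR's quasi-likelihood test (Benjamini-Hochberg adjusted p = 0.196). DESeq2 gave an adjusted p of 0.0207 for the same gene, and over all alternatives its adjusted p ranged from 0.0207 to 0.712. In the deposited FPKM the groups were also apart, at 72.6, 65.2, 40.8 and 76.8 in DSS_CA and 116, 96.1, 91.3 and 109 in DSS.

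Hist1h2bf, another H2B gene, whose counted end lies 29 bases past its stem-loop, had 2.51, 1.501, 2.12 and 2.05 CPM in DSS_CA 1 to 4, against 3.07, 4.37, 3.53 and 3.40 CPM in DSS 1 to 4. Every DSS_CA library was again lower than every DSS library, on 21 to 61 counts per library. Its log2 fold change was -0.81 (SE 0.339; edgeR's quasi-likelihood test, Benjamini-Hochberg adjusted p = 0.558). With an offset for gene length the log2 fold change was -0.53. Hist1h2bh (log2 fold change -0.64, SE 0.416) and Hist2h2be (-0.58, SE 0.443) overlapped between the groups, and Hist3h2ba was at 0.04 (SE 0.706). Hist2h2be had 3.81, 3.94, 1.82 and 4.42 CPM in DSS_CA 1 to 4, against 4.70, 9.28, 2.56 and 4.63 CPM in DSS 1 to 4. Its high library was DSS 2, and without that library its log2 fold change was -0.17.

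Hist3h2a was the H2A gene with the most counts, 384 in DSS_CA and 512 in DSS. It had 4.54, 6.88, 6.07 and 6.84 CPM in DSS_CA 1 to 4, against 8.32, 9.43, 8.35 and 7.69 CPM in DSS 1 to 4. The groups did not overlap, with a log2 fold change of -0.47 (SE 0.285) that did not pass edgeR's quasi-likelihood test (Benjamini-Hochberg adjusted p = 0.813). Hist1h1c, Hist1h2bc, Hist1h2bf and Hist3h2a were thus the 4 of 18 histone genes whose groups did not overlap on the CPM scale, all lower in DSS_CA, beside 2.81% of all genes lower and 3.24% higher without overlap. On the deposited FPKM scale only Hist1h2bc of the 18 was without overlap, beside 1.91% of all genes lower and 3.98% higher.

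The paired copies Hist2h2aa1 and Hist2h2aa2, which share nearly all of their sequence windows with other genes, gave an uncertain split. Hist2h2aa1 had 0, 144, 19 and 0 counts in DSS_CA 1 to 4, against 0, 57, 74 and 0 counts in DSS 1 to 4. Counts were thus found in libraries 2 and 3 of each group and in no other. Together the pair had 2.25, 11.3, 3.13 and 3.29 CPM in DSS_CA 1 to 4, against 2.17, 7.62, 9.85 and 4.85 CPM in DSS 1 to 4, which overlapped. The fitted log2 fold change was 0.16 for Hist2h2aa1 (SE 1.56) and -0.68 for Hist2h2aa2 (SE 0.409), and neither passed the test. Hist1h2ae was at -0.23 (SE 0.663), on 1 to 10 counts per library.

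The H3 genes were the lowest type, with 165 counts in DSS_CA and 234 in DSS over 12 genes. Summed, they had 2.72, 2.75, 2.83 and 2.21 CPM in DSS_CA 1 to 4, against 2.23, 3.54, 7.22 and 3.01 CPM in DSS 1 to 4. The groups overlapped, and DSS 3 was the high library. Hist2h3c2, Hist1h3g and Hist1h3i had log2 fold changes of -0.31 (SE 0.489), -0.24 (SE 0.793) and -0.16 (SE 0.564). Among the genes below the filter, Hist1h3f had 1 count in DSS_CA and 19 in DSS, Hist1h3h 0 and 8, and the H2B gene Hist1h2bm 0 and 7. DSS 3 alone gave 16, 7 and 6 of these DSS counts. The 3 genes were picked out by their p in the fit with no filter, in which their edgeR adjusted p lay between 0.473 and 0.543. In that fit 5 of 65 histone genes were lower in DSS_CA at an unadjusted p below 0.05, beside 6.39% of all genes.

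The H4 genes differed widely between libraries of the same group. Summed over 13 genes, they had 5.07, 10.4, 32.0 and 8.08 CPM in DSS_CA 1 to 4, against 4.82, 17.2, 26.3 and 12.8 CPM in DSS 1 to 4. The highest library was DSS_CA 3 and the lowest DSS 1, and the groups overlapped throughout. Hist1h4i, which held 863 of the 1618 counts, had 57, 90, 176 and 104 counts in DSS_CA 1 to 4, against 16, 120, 180 and 120 counts in DSS 1 to 4. Its log2 fold change was 0.07 (SE 0.695). All 5 tested H4 genes had their highest DSS_CA level in DSS_CA 3, and 4 of the 5 their highest DSS level in DSS 3. The other 4 tested H4 genes, Hist1h4m, Hist1h4c, Hist1h4k and Hist1h4h, had log2 fold changes from -0.85 to -0.16 with SEs from 0.641 to 1.01.

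**Figure D4:**
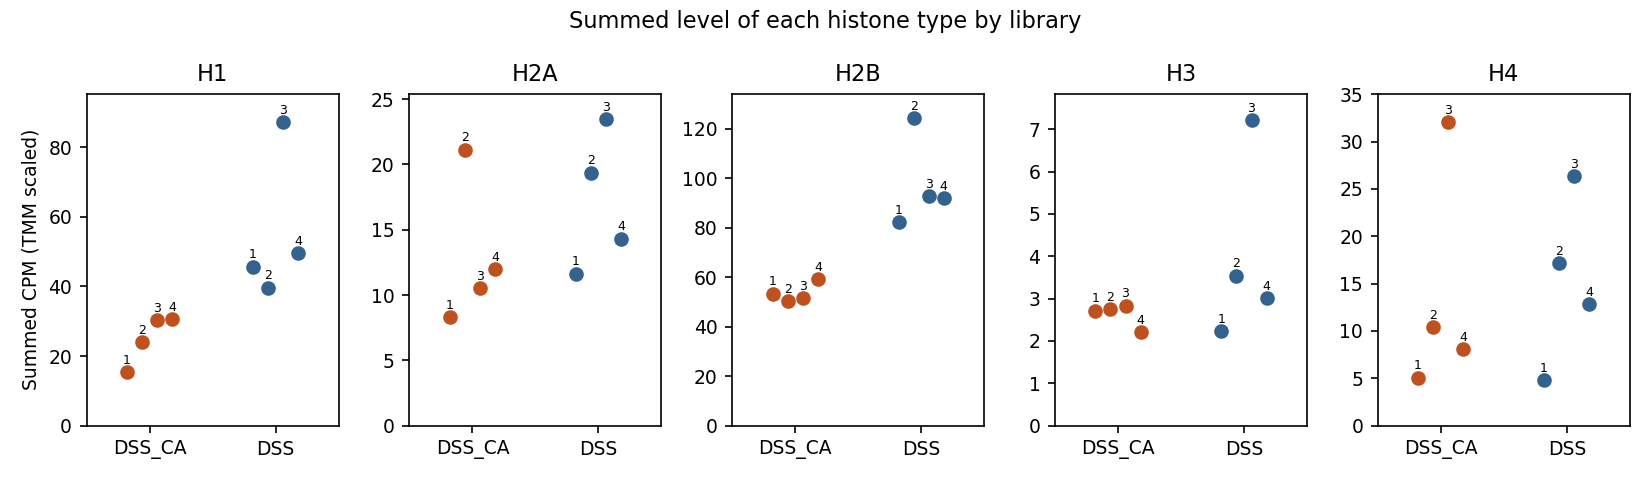
Summed level of all genes of each histone type (CPM, TMM scaled) in every library, with DSS_CA left of DSS; each point is 1 library and the digit is its replicate number. H1 and H2B, led by Hist1h1c and Hist1h2bc, lie lower in all 4 DSS_CA libraries, whereas H2A, H3 and H4 overlap. In the deposited FPKM the H1 sums overlap too, at 23.4 in DSS_CA 4 and 19.5 in DSS 2.

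**Figure D5:**
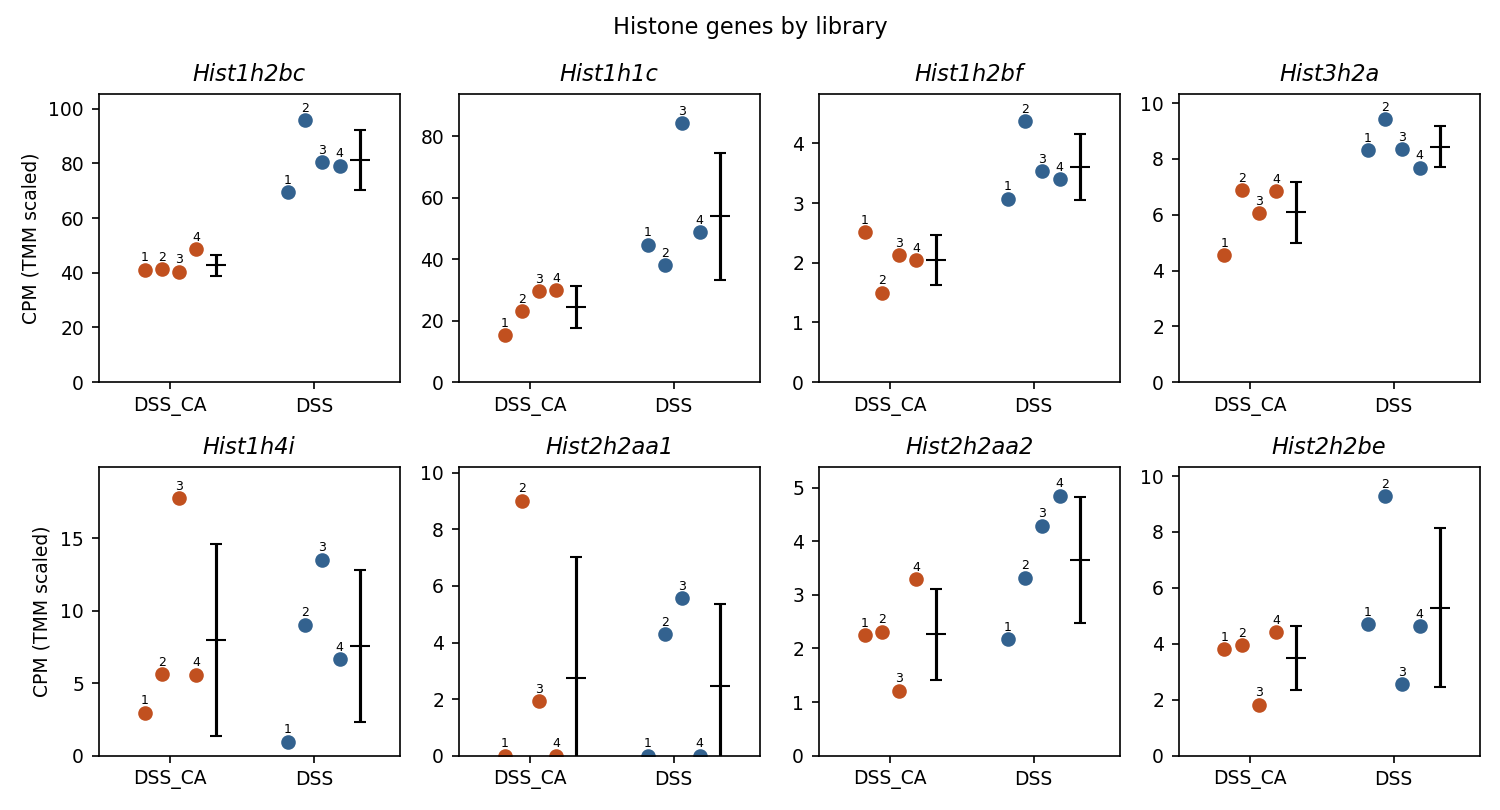
Level (CPM, TMM scaled) of 8 histone genes by library, with DSS_CA left of DSS; points are single libraries with their replicate number, and the black mark with bars is the mean with its SD (n = 4). The groups do not overlap in the 4 upper panels and overlap in the 4 lower ones.

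Over all 70 genes the summed level was 84.8, 109, 127 and 112 CPM in DSS_CA 1 to 4, against 147, 204, 237 and 172 CPM in DSS 1 to 4. The groups did not overlap, and the log2 ratio of the means, 108 ± 17.5 CPM in DSS_CA and 190 ± 39.2 CPM in DSS (SD, n = 4 each), was -0.81. Without Hist1h1c and Hist1h2bc the sums were 28.4, 44.2, 57.0 and 33.4 CPM in DSS_CA 1 to 4, against 32.4, 70.0, 72.0 and 43.7 CPM in DSS 1 to 4, with a log2 ratio of -0.42. These overlapped. Without Hist1h1c alone the sums stayed apart, with the highest DSS_CA library at 97.5 CPM and the lowest DSS library at 102 CPM, and without Hist1h2bc alone they overlapped, at 86.7 and 77.2 CPM. The highest libraries of their groups in the sum over 70 genes were DSS_CA 3, DSS 2 and DSS 3. Leaving out these 3 kept DSS_CA 1, 2 and 4 and DSS 1 and 4. It brought the log2 ratio of the other 68 genes to -0.11, and that of all 70 genes to -0.65. As these libraries were the highest in the sum, a smaller difference without them follows in part from leaving them out. No conclusion on the genes is drawn from it, nor from the fits without these libraries given below. In bulk samples, fewer cells that carry a transcript and less of it per cell cannot be told apart.

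The 3 libraries left out there stood apart in other measures. Gene length, as a harmonic mean weighted by counts, was 1445 bases in DSS_CA 3, 1423 in DSS 2 and 1448 in DSS 3. It was 1719 to 2412 bases in the 5 others. Mitochondrial genes took 9.72, 14.1, 20.5 and 13.2% of the counts in DSS_CA 1 to 4, against 16.2, 27.7, 17.8 and 19.8% in DSS 1 to 4, highest in DSS_CA 3 and DSS 2 within their groups. Summed Paneth cell markers, which mark the secretory cells at the crypt base, were 15029 CPM in DSS_CA 3, 30612 in DSS 2 and 30403 in DSS 3, against 3576 to 14411 CPM in the others. Enterocyte markers lay further apart, at 77728 CPM in DSS_CA 3, 54285 in DSS 2 and 59110 in DSS 3, against 13602 to 31049 CPM in the others. With an offset for gene length the median log2 fold change of the 18 genes was -0.29, and without the 3 libraries it was -0.24. Hist1h2bc had log2 fold changes of -0.76 and -0.80 in these fits, and Hist1h1c -1.10 and -1.07. Without the 3 libraries, Hist1h2bc passed the threshold of edgeR's quasi-likelihood test (Benjamini-Hochberg adjusted p = 0.0377), among 655 genes called. The 5 libraries kept in that fit, DSS_CA 1, 2 and 4 and DSS 1 and 4, made groups of unequal size.

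Marker lists of crypt cells and of other cells differed between the groups as well. All 4 Paneth cell markers had log2 fold changes below 0 (median -1.47), and their sums overlapped between the groups. Of these markers, 3 were lower at an unadjusted p below 0.05 by edgeR's quasi-likelihood test, beside 4.85% of all genes tested. Crypt stem cell markers summed to 557, 515, 187 and 562 CPM in DSS_CA 1 to 4, against 647, 1389, 356 and 789 CPM in DSS 1 to 4, a log2 ratio of -0.80 with overlap, and 0 of their 3 tested genes reached that p. All 7 T and NK cell markers were lower in DSS_CA at an unadjusted p below 0.05 by the same test, and 1 of them also passed the adjusted threshold. Their summed level ranged from 59.2 to 230 CPM in DSS_CA and from 274 to 661 CPM in DSS. B and plasma cell markers ranged from 6.58 to 21.5 CPM in DSS_CA and from 28.3 to 64.9 CPM in DSS, and goblet cell markers from 1883 to 2943 and from 3572 to 6675 CPM. In the deposited FPKM the goblet cell sums overlapped, at 1461 in DSS_CA 2 and 1312 in DSS 2. The sums of T and NK cells and of B and plasma cells stayed apart on that scale. The 4 general epithelial markers overlapped, at 5772 to 7411 CPM in DSS_CA and 6265 to 7325 CPM in DSS. No gene of these lists was without counts. The part of these cells in the histone levels was not tested.

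The genes that make and handle histone mRNA and protein had no call. Of 13 genes of histone mRNA transcription, 3′ end processing and decay, 11 were tested and 0 passed the edgeR threshold, with a median log2 fold change of 0.03. Slbp was at 0.09 (SE 0.357) and turned below 0 without DSS 2, DSS 3 and DSS_CA 3, Npat, the activator of histone gene transcription, at -0.44 (SE 0.380), and Cstf2, a cleavage factor subunit, at 0.59 (SE 0.269). Zfp473, a zinc finger protein of the U7 processing complex, and Lsm11, a core protein of the U7 particle, did not pass the filter. Of 9 chaperone and deposition genes 0 passed (median 0.17), with Chaf1b, a subunit of chromatin assembly factor 1, at 0.46 and the H3 and H4 chaperone Asf1b at 0.40.

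The replication-independent variants had a median log2 fold change of 0.19, and 0 of 9 passed the edgeR threshold. H2afz, the gene of H2A.Z, was at -0.73 (SE 0.398) and H3f3b at 0.41 (SE 0.272). H3f3b had 337, 363, 502 and 369 CPM in DSS_CA 1 to 4, against 295, 309, 293 and 285 CPM in DSS 1 to 4. These groups did not overlap, and H3f3b was higher in every DSS_CA library. It was the 1 variant of the 9 tested without overlap, beside 3.24% of all genes tested that were higher without overlap.

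The S phase genes had no call either. None of 25 passed the edgeR threshold, with a median log2 fold change of 0.17 and 18 of 25 above 0. Their summed level was 838, 817, 819 and 812 CPM in DSS_CA 1 to 4, against 609, 809, 806 and 713 CPM in DSS 1 to 4, so that every DSS_CA library lay above every DSS library by a narrow margin. In the deposited FPKM these sums overlapped, at 229, 202, 133 and 199 in DSS_CA and 158, 127, 145 and 153 in DSS. Rrm2, the small subunit of ribonucleotide reductase, was at 0.94 (SE 0.323; edgeR's quasi-likelihood test, Benjamini-Hochberg adjusted p = 0.385), and Pola1, the catalytic subunit of DNA polymerase alpha, at -0.83 (SE 0.452). Of 15 genes of G2 and M phase 0 passed (median 0.22), with Cenpf, a kinetochore protein, at -1.35 (SE 0.632) and Ccna2, cyclin A2, at 0.47 (SE 0.314). Among the listed RNAs without a tail, Malat1 was at -0.55 (SE 0.531) and Neat1 at -0.72 (SE 0.716).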

How the data were processed

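Each library came as a table of 34745 genes with raw counts and FPKM, both deposited by the authors and named per the file headers. The submitters' processing notes name HISAT2, StringTie, GRCm38 and mm10; versions, the counting tool, its strand setting and its handling of reads that fit several genes are not given in these sources. Counts were tested with edgeR 4.0.16 (limma 3.58.1, R 4.3.3): TMM scaling, group as the only term, two-sided quasi-likelihood test, Benjamini-Hochberg adjustment over 9913 genes, threshold 0.05. SE is the absolute log2 fold change over the square root of F, so it derives from the test. DESeq2 1.42.0 and limma-voom were alternatives.

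The histone genes, context lists and marker lists were chosen with earlier results of these data known. Named were, per histone type, the 4 genes with the highest level and the 2 tested genes with the smallest p, 3 genes known as polyadenylated, and per context list the 2 genes with the smallest p; the others named, such as Slbp, Npat, H1f0, Pcna and Hist1h3f, were chosen after their values were seen. All 70 histone genes were matched to GENCODE M21, 2 of them by symbol. Sequences were searched in Python 3.11.15 (pandas 2.3.3), and plots used matplotlib 3.10.9.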

Additional observations from a re-analysis of the deposited data

Results flagged for a closer look

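Of 46 sets of 4 libraries examined for a library far from its group, 1 stood out, where chance gives about 5% of sets. Hist1h2bc in DSS_CA 4 was at 48.6 CPM, while the other DSS_CA libraries lay between 40.4 and 41.2 CPM, a gap of 0.904 of the whole range. DSS_CA 4 was still below every DSS library, and without it the log2 fold change of Hist1h2bc was -0.99.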

How the results depend on the processing

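The summed level of the 70 histone genes kept its direction under all 13 alternatives, with log2 ratios from -0.92 to -0.61. The median log2 fold change of the 18 tested genes stayed below 0 under 17 alternatives, from -0.63 to -0.24, the last without DSS 2, DSS 3 and DSS_CA 3. Histone genes called lower numbered 1 with DESeq2's test and 1 without those 3 libraries, Hist1h2bc both times, and 0 otherwise.

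Over all genes, 4 were called higher and 9 lower. The counts were 7 and 20 with DESeq2 size factors, 51 and 169 with DESeq2's test, 11 and 23 with limma-voom, 18 and 61 with no filter, 18 and 52 with a gene length offset, and 234 and 421 without the 3 libraries. Leaving out single libraries gave 0 to 19 higher and 4 to 65 lower, the most without DSS_CA 3. The cause was not tested. The correlations of same-numbered deviations were 0.770, -0.369, 0.104 and 0.215 for numbers 1 to 4, so 3 of 4 were positive and 1 was not, and the labels give no shared source; the numbers were not taken as pairs. A replicate block gave 14 higher and 51 lower genes, a block with the length offset 4 and 12, and 0 histone genes in either.

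Directions turned in 8 of the 18 tested histone genes and in Slbp. With single libraries left out, the log2 fold change ranged from -2.13 to 0.97 in Hist2h2aa1 (the lowest without DSS_CA 2), from -0.71 to 0.62 in Hist1h3g, from -0.38 to 0.15 in Hist1h3i, from -0.67 (without DSS_CA 3) to 0.51 in Hist1h4i from -1.35 (without DSS_CA 3) to 0.35 (without DSS 3) in Hist1h4h, from -0.68 to 0.11 in Hist1h2ae, from -0.34 to 0.45 in Hist3h2ba and from -0.26 to 0.31 in Slbp. Hist2h2aa1 was at -0.21 with limma-voom and -0.16 with the replicate block. Over all alternatives other than single libraries left out, its highest log2 fold change was 8.69. With DSS 2, DSS 3 and DSS_CA 3 left out, the only counts of Hist2h2aa1 were the 144 of DSS_CA 2. Hist1h3g was at 0.12 with the length offset, 0.22 with offset and block, 0.081 with limma-voom and 0.079 without the 3 libraries. Hist1h3i was at 0.089 with the offset and 0.13 with offset and block, and Hist1h4m at 0.16 without the 3 libraries. Hist1h2ae was at 0.18 with the offset, 0.19 with offset and block, 0.17 with limma-voom and 1.003 without the 3 libraries, Hist3h2ba at -0.20 without them, and Slbp at -0.24 without them and -0.0026 with offset and block. The cause of these turns was not tested. The sum without Hist1h1c and Hist1h2bc, chosen after seeing the data, ranged from -0.46 to -0.11.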
